A study of Mus musculus and Homo sapiens with 34 samples.

Results

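The cytochrome P450 (P450) genes described here are every row of 7 deposited count tables whose gene name is Cyp or CYP followed by a digit, apart from Cyp51 and CYP51A1, Cyp2f2 and CYP2F1, and the pseudogenes whose names end in -ps or P. The rule gave 51 mouse genes among 21401 genes listed in any of the 4 mouse tables, and 46 human rows among 27030 genes listed in any of the 3 human tables. Of the 46 human rows, 40 are enzyme genes, 4 are antisense RNAs named after a P450 gene and 2 are processed pseudogenes. The tables list different genes, so 19 of the 51 mouse genes stood in all 4 mouse tables and 36 of the 46 human rows in all 3 human tables.

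P450 enzymes are haem proteins that insert an oxygen atom into a substrate, with electrons passed on by the reductase Por or, in mitochondria, by the ferredoxin Fdx1. Families 1 to 3 oxidise mainly drugs, toxicants and arachidonic acid, family 4 the fatty acids and eicosanoids, and other families make or break down sterols, bile acids, steroids, vitamin D and retinoids. HNF4α, a nuclear receptor of liver, gut and kidney that gastric and intestinal lineages also express, is a known activator of many liver P450 genes, and AHR is the ligand-activated receptor that induces family 1.

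The study holds 34 RNA-seq libraries of lung adenocarcinoma cultures in 17 groups of 2, of which 22 are mouse and 12 human. The mouse organoid culture 3154 carries p53frt, Rosa-FSF-CreERT2 and Hnf4aflox in every group, ethanol controls included. 4-hydroxytamoxifen (4OHT) activates the Rosa-driven CreERT2 and so deletes Hnf4a. No culture without Hnf4aflox had 4OHT, so effects of the deletion, of 4OHT and of active CreERT2 cannot be told apart. Below, Hnf4a deletion names the comparison of 4OHT with ethanol. In the first 3154 experiment the cells had 2 mM 4OHT (the unit as labelled) or ethanol for 2 days and were harvested 2 weeks later. In the second they had ethanol or 4OHT, each with vehicle or with 3 nM of the small-molecule inhibitor MRTX1133, under a label of 48 h. No dose or pulse of 4OHT, and no time since it, is recorded here for that experiment. Below, 48 h names the experiment and not a time after deletion. The organoid culture 1027B and the cell line 3311 carry p53frt, Rosa-FSF-CreERT2, Foxa1flox and Foxa2flox in all groups, with no deleting treatment named. 1027B organoids had vehicle, 10 nM trametinib (a MEK inhibitor) or 20 nM MRTX1133 for 48 h, and 3311 cells had vehicle or 50 nM trametinib for 48 h. The human lung adenocarcinoma lines H1651 and H358 had vehicle or 20 nM trametinib for 48 h, and H1651 cells with a lentiviral HNF4α construct were left without or given 1 µg/mL doxycycline for 7 days. Each culture is 1 line, so a value describes that line. The labels do not say that the 2 replicates of a group were separate cultures, and p-values then measure only the spread between these samples.

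Totals ran from 19692517 to 45284286 counts per library, and the 2 libraries of each group differed by more than counting noise. Levels below are CPM, the usual depth-scaled read counts, with library totals adjusted by TMM factors, and a gene is called changed, or said to have risen or fallen, at an adjusted p under 0.05 in edgeR's quasi-likelihood test with Benjamini-Hochberg adjustment over all genes tested. With 2 libraries a group, no exact permutation test of single values could reach that threshold. Epithelial markers summed to 6156 to 10905 CPM in mouse and 3599 to 6922 CPM in human libraries. In mouse libraries, fibroblast, immune and endothelial markers summed to at most 15.8, 8.55 and 5.93 CPM. Fibroblast markers reached 725 CPM in human ones. Lung epithelial markers spanned 461 to 16709.5 CPM in mouse libraries and 24.9 to 178 CPM in human ones.

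The letters near the start sites of the Cyp2c genes are shown here because Cyp2c65 and Cyp2c68 are among the genes that fell after Hnf4a deletion. RefSeq promoters (GRCm38.p6, 250 bases before to 50 after the start) were found for 39 of the 51 mouse genes, 44 windows in all. An HNF4 motif, CAAAGTCCA or CAAAGTTCA on either strand, stood in 7 of the 44 windows, 15.9%, and in 283 of 32851 promoter windows of the genome, 0.861%. The 7 genes are Cyp26a1, Cyp2c65, Cyp2c67, Cyp2c68, Cyp2c70, Cyp3a11 and Cyp3a16. The AHR motif TNGCGTG was in 1 of 44 windows against 5.07% of all windows, and the AP-1 motif TGANTCA in 4 of 44 against 7.81%, both strands counted. In the 4 Cyp2c stretches below, each read along the gene's own strand, capitals mark CAAAGTCCA. The stretches are Cyp2c65 at chr19:39060860-39060928 (plus strand), and Cyp2c67 at chr19:39649129-39649197, Cyp2c68 at chr19:39741140-39741208 and Cyp2c70 at chr19:40187312-40187380 (minus strand).
Cyp2c65: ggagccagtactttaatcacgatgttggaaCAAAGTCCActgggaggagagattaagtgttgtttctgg
Cyp2c67: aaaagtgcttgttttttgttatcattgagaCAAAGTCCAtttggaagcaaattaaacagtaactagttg
Cyp2c68: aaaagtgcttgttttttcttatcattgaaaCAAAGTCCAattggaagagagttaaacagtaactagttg
Cyp2c70: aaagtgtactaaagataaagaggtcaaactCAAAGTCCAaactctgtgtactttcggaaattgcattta
The first base of the motif lies 116 bases before the start in Cyp2c65, 125 in Cyp2c67, 77 in Cyp2c68 and 64 in Cyp2c70. Cyp2c67 and Cyp2c68 are close copies of each other and of Cyp2c40, and 23.7% and 19.8% of their 100-base exon windows also occur in another gene, so counts of this pair are uncertain. The motif is a match of letters, and no binding was measured. No match stood in the windows of Cyp2c55, Cyp2s1, Cyp2w1, Cyp2d26, Cyp4f14, Cyp4f39 or Cyp4f40, which also fell after deletion, nor in those of Cyp2c29 and Cyp2c66. Cyp2c23, which fell as well, was not among the 39 genes with a window.

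In the mouse ethanol or vehicle libraries without 4OHT, taken as the mean of each culture, the P450 gene with the highest CPM was Cyp2s1, an extrahepatic enzyme of epithelia. On a per-length scale, CPM per kilobase of exon, Cyp2s1 stood at 234 in 3154 (2-week experiment), 152 in 1027B and 116 in 3311. Cyp2c65, an arachidonic acid epoxygenase known from the gut, stood at 64.5 in 3154 and, above Cyp2s1, at 151 in 3311. Cyp1b1, an AHR target that oxidises oestrogens and polycyclic hydrocarbons, stood at 90.6 in 1027B. Cyp4f14, which oxidises leukotriene B4 and vitamin K, followed in 1027B at 85.0, and Cyp2d26 in 3154 at 62.6. Human levels could be given only without length. CYP1B1 led in H358 with a mean of 92.0 CPM, in H1651 with 119 CPM and in H1651 without doxycycline with 87.5 CPM. Next to CYP1B1 in H1651 stood CYP4V2, a fatty acid hydroxylase, at 32.9 CPM in the vehicle and 41.5 CPM in the no-doxycycline libraries.

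**Figure D1:**
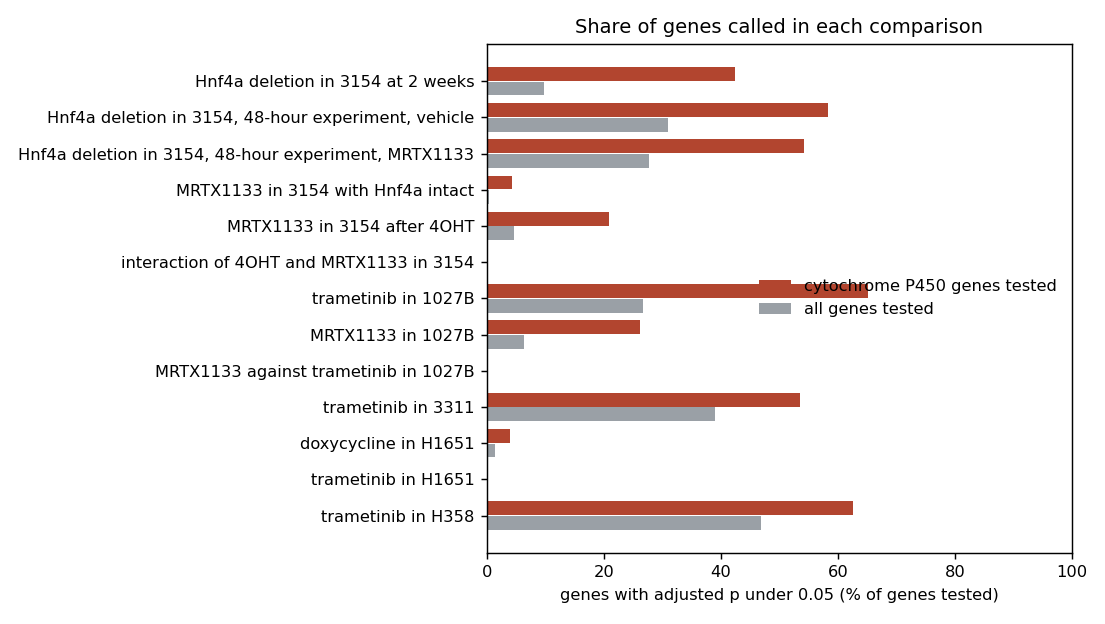
Percentage of tested genes called changed (x axis) in each of the comparisons (y axis), for P450 genes and for all genes tested. After Hnf4a deletion at 2 weeks 42.3% of the tested P450 genes were called against 9.81% of all genes. Several of the P450 genes that fell there had few or no reads after 4OHT and passed the count filter through their ethanol libraries. Requiring 10 counts in every library left fewer calls at 2 weeks, of P450 genes and of all genes (1004 against 1421). The shares were not compared under that filter. In H1651 with trametinib none of either were called.

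At 2 weeks after 4OHT, Cyp2c23, Cyp2c55, Cyp2c65, Cyp2c68, Cyp4f14, Cyp4f39, Cyp4f40, Cyp2d26, Cyp2s1 and Cyp2w1 were lower in the 3154 organoids. Of 26 P450 genes tested 10 fell and 1 rose, 42.3% of them, against 9.81% of all genes (5.78% fell and 4.03% rose). Several of those that fell had few or no reads after 4OHT and passed the count filter through their ethanol libraries. Requiring 10 counts in every library left fewer P450 calls in this and the 48-h deletion comparisons, as given in the last section. The median log2 change was −0.99 over the tested P450 genes and 0.02 over all genes. The sum over all P450 genes went from 1397 and 2106 CPM in the ethanol libraries to 515 and 658 CPM after 4OHT. In such bulk samples, fewer cells of a type and less RNA per cell cannot be told apart.

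Hnf4a itself, the targeted gene, read 315 and 427 CPM with ethanol and 53.4 and 67.9 CPM with 4OHT at 2 weeks (log2 −2.61, adjusted p 0.00643). In the 48-h experiment it read 221 and 230 CPM with ethanol and 49.4 and 50.3 CPM with 4OHT (log2 −2.18, adjusted p 0.000141). Both sets kept some Hnf4a reads. The summed hepatocyte markers, a list that HNF4α itself is known to drive, moved with deletion from 355 and 885 CPM to 11.97 and 21.6 CPM at 2 weeks and from 6.22 and 10.3 CPM to 1.29 and 0.893 CPM at 48 h. Club cell markers went the other way, from 40.6 and 27.7 to 103 and 125 CPM at 2 weeks, from 33.6 and 68.8 to 425 and 633 CPM at 48 h with vehicle and from 137 and 192 to 937 and 953 CPM with MRTX1133. Gastric and intestinal markers went from 516 and 463 to 695 and 1027 CPM at 2 weeks, from 338 and 468 to 657 and 622 CPM at 48 h with vehicle and from 244 and 327 to 301 and 335 CPM with MRTX1133. The part of these lists in the P450 changes was not tested.

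Among the genes of drug and arachidonic acid oxidation, Cyp2c65 (chr19:39061015-39093944) fell furthest of those still counted, at 2 weeks and at 48 h with vehicle. It read 111 and 138 CPM with ethanol and 0.230 and 0.0375 CPM with 4OHT at 2 weeks, log2 −9.75 ± 0.42 (SE), adjusted p 0.00193. In the 48-h experiment it read 44.6 and 75.5 against 0.341 and 0.268 CPM (log2 −7.59 ± 0.60, adjusted p 0.000264). The groups lay far apart in both experiments. Cyp2d26 (chr15:82790101-82794294), a family 2 enzyme, showed the same shape, with 68.5 and 156 CPM against 0.230 and 0.412 CPM at 2 weeks (log2 −8.45 ± 0.60, adjusted p 0.00551). At 48 h its ethanol libraries stood at 38.1 and 81.4 CPM and its 4OHT libraries at 0.569 and 0.580 CPM (log2 −6.69 ± 0.55, adjusted p 0.0003). Every 4OHT library was under 1 CPM and every ethanol library over 38 CPM.

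The lower-expressed Cyp2c genes lost most of their reads as well. Cyp2c55 (chr19:39007019-39042693), a gut epoxygenase, had 1.15 and 1.62 CPM with ethanol and 3 reads in all after 4OHT, a ratio of 25.7 with a counting interval of 8.45 to 128 (adjusted p 0.015). At 48 h it had 3.11 and 7.26 CPM with ethanol and 2 reads in all after 4OHT, a ratio of 127 with an interval of 34.7 to 1051 (adjusted p 0.00502). Cyp2c68 read 0.923 and 1.89 CPM with ethanol and no read after 4OHT at 2 weeks, at least 13.3-fold lower (adjusted p 0.022). Intervals and floors of this kind, the latter set at 3 counts in each library, cover counting error only. Cyp2c23, another epoxygenase of the same chromosome, fell less, from 14.5 and 15.3 to 5.31 and 7.19 CPM at 2 weeks (log2 −1.25 ± 0.23, adjusted p 0.0302), and was not called at 48 h. Of the other genes with the HNF4 motif, Cyp2c70 had 32 reads with ethanol and 3 after 4OHT at 2 weeks (log2 −3.47, adjusted p 0.0939), and Cyp2c67 had 12 and 0 reads, too few to test. The remaining motif genes, Cyp26a1, Cyp3a11 and Cyp3a16, were not called in any comparison.

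Cyp1b1 (chr17:79701537-79715061) was the 1 P450 gene that rose at 2 weeks, from 160 and 112 to 281 and 282 CPM (log2 1.05 ± 0.19, adjusted p 0.0296). At 48 h it read 319 and 214 CPM with ethanol and 298 and 334 CPM with 4OHT, and the groups overlapped (log2 0.24, adjusted p 0.402). It was the highest P450 gene by CPM in every 4OHT library, where Cyp2s1 led in every ethanol library.

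Cyp2s1 (chr7:25802475-25816913) read 834 and 1472 CPM with ethanol and 105 and 208 CPM with 4OHT at 2 weeks, 7.36-fold lower (log2 −2.88 ± 0.42, adjusted p 0.0178). In the 48-h experiment it read 557 and 327 against 77.4 and 36.6 CPM, 7.75-fold lower (log2 −2.95 ± 0.53, adjusted p 0.00521), with log2 −3.60 without 4OHT replicate 1 and −2.52 without 4OHT replicate 2. The lowest ethanol library stood above the highest 4OHT library in both. Cyp2w1, an orphan enzyme of fetal gut and tumours, read 6.82 and 3.32 CPM against 0.394 and 0.0749 CPM at 2 weeks (log2 −4.38 ± 0.72, adjusted p 0.0232) and also fell at 48 h (log2 −2.32 ± 0.67, adjusted p 0.033).

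**Figure D2:**
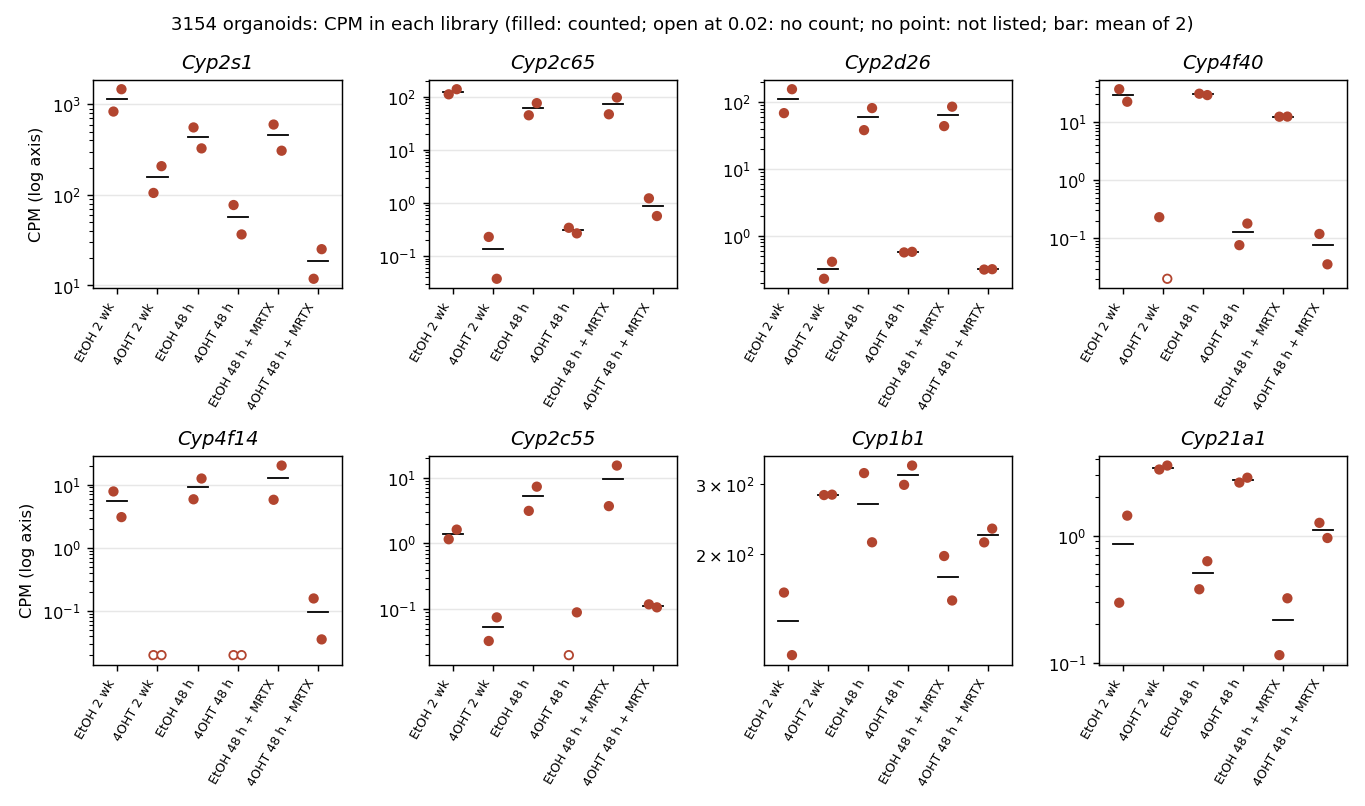
CPM (log axis) of 8 P450 genes in each ethanol (EtOH) and 4OHT library of the 2-week and 48-h experiments, the latter without and with MRTX1133 (MRTX), with 1 point per library, open points for no count and bars for the mean of 2. For Cyp2d26 and Cyp4f40 all 4OHT points lie under 1 CPM and all ethanol points over 10 CPM, while Cyp1b1 overlaps between the 48-h vehicle groups.

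Of the fatty acid oxidising genes, 8 were tested at 2 weeks and 3 fell, against 5.78% of all genes, all 3 members of the Cyp4f cluster, 7 genes within chr17:32452723-32947402. Cyp4f40 (chr17:32658900-32676914) read 36.6 and 22.3 CPM against 0.230 and 0 CPM at 2 weeks (log2 −7.87 ± 0.71, adjusted p 0.0074) and 30.7 and 29.0 against 0.0758 and 0.179 CPM at 48 h (log2 −7.86 ± 0.32, adjusted p 5.29e-05). Cyp4f14 (chr17:32905070-32917342) read 7.78 and 3.05 CPM with ethanol and no read after 4OHT at 2 weeks, at least 51.4-fold lower (adjusted p 0.0165), and 5.85 and 12.5 CPM against no read at 48 h, at least 73.9-fold lower (adjusted p 0.00312). Cyp4f39, which makes the long hydroxy fatty acids of skin ceramides, kept part of its level, 15.4 and 12.03 against 5.38 and 4.35 CPM at 2 weeks (log2 −1.49 ± 0.24, adjusted p 0.0227) and log2 −1.94 ± 0.47 at 48 h (adjusted p 0.0166). Their neighbour Cyp4f16 had a log2 change of −0.03 at 2 weeks (adjusted p 0.913), with 9.80% of its exon windows shared with other genes. Cyp4v3, the retinal fatty acid hydroxylase, stood at log2 −0.02 and Cyp20a1, an orphan, at log2 −0.02 at 2 weeks.

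In the 48-h experiment with vehicle, 11 P450 genes fell and 3 rose among 24 tested, 58.3% called against 31% of all genes (15.7% fell and 15.3% rose), with a median log2 change of −0.44 against 0.01. The 2-week and 48-h experiments share no library. Of 21 genes tested in both, 8 were called in both, all in the same direction, which is 72.7% of the 11 calls at 2 weeks and 57.1% of the 14 calls at 48 h. Over all genes, 947 of 13846 tested in both were called in both, 934 of them in the same direction, which is 66.6% of the 1421 calls at 2 weeks and 19.7% of the 4795 at 48 h. The further falls at 48 h were Cyp4f17 (log2 −1.09 ± 0.32, adjusted p 0.0366), Cyp4f13 (log2 −0.78 ± 0.16, adjusted p 0.00852) and Cyp39a1, an oxysterol hydroxylase of bile acid synthesis, from 16.8 and 13.7 to 9.02 and 9.24 CPM (log2 −0.74 ± 0.20, adjusted p 0.0241). The 3 that rose were Cyp21a1, the steroid 21-hydroxylase, from 0.378 and 0.629 to 2.62 and 2.86 CPM (log2 2.43 ± 0.40, adjusted p 0.00362), Cyp3a57 (log2 1.19 ± 0.26, adjusted p 0.0108) and Cyp4v3, from 2.99 and 3.44 to 6.29 and 5.18 CPM (log2 0.84 ± 0.20, adjusted p 0.0155). At 2 weeks Cyp3a57 read 7.513 and 7.497 CPM with ethanol and 3.08 and 4.57 CPM with 4OHT (log2 −0.97, adjusted p 0.0921, DESeq2 0.0488). With only the 2 groups fitted, Cyp4f17 (adjusted p 0.0516) and Cyp4v3 (0.0581) were not called at 48 h. Cyp21a1 shares 5.87% of its exon windows with the pseudogene Cyp21a2-ps, and 8.22% of the exon of Cyp4v3 lies in another gene on the same strand.

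In the libraries with MRTX1133, 9 P450 genes were lower and 4 higher after 4OHT than after ethanol among 24 tested, 54.2% against 27.7% of all genes (14.5% fell and 13.2% rose), with a median log2 change of −0.20 against −0.01. Cyp2s1 went from 599 and 308 to 11.9 and 25.2 CPM, 24.5-fold lower (log2 −4.61 ± 0.57, adjusted p 0.00123), with log2 −5.26 without 4OHT replicate 2 and −4.05 without ethanol replicate 1. Cyp2c65 went from 46.6 and 96.4 to 1.22 and 0.568 CPM (log2 −6.33 ± 0.52, adjusted p 0.000289) and Cyp4f40 from 12.3 and 12.4 to 0.118 and 0.0355 CPM (log2 −7.27 ± 0.34, adjusted p 7.42e-05). Cyp2d26, Cyp4f14, Cyp2c55, Cyp2w1 and Cyp2d34 also fell, with log2 changes of −7.65, −7.03, −6.33, −2.72 and −2.96. Cyp2d34, under 1 CPM in both groups, was added to the named genes after its values were seen. Cyp26b1, which degrades retinoic acid, went from 16.9 and 14.1 to 3.15 and 5.96 CPM (log2 −1.76 ± 0.34, adjusted p 0.00808). Cyp2b10, the classic target of the drug receptor CAR, went from 0.918 and 1.08 to 5.52 and 5.32 CPM (log2 2.43 ± 0.29, adjusted p 0.00113), and Cyp21a1, Cyp3a57 and Cyp4v3 rose as well (log2 2.33, 1.01 and 1.06).

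Several calls ended when 1 library was left out, in fits where the lone sample left is taken to vary like the others. Calls over all genes moved as well, from 1421 at 2 weeks to between 395 and 2790, from 4795 at 48 h with vehicle to between 1668 and 5964, and from 4279 with MRTX1133 to between 1745 and 2805. In the fits that ended a P450 gene's call, its fitted log2 change stayed within 1.19, 1.45 and 1.34 times its full value in the 3 comparisons. Cyp1b1 at 2 weeks kept log2 1.05 in both fits that ended its call. At 2 weeks, leaving out 4OHT replicate 1 ended the calls of Cyp1b1, Cyp2c23, Cyp2c55, Cyp2c68 and Cyp4f39 (adjusted p 0.0691 to 0.164) and left Cyp4f40 without a read after 4OHT, and leaving out 4OHT replicate 2 ended the same 5 and Cyp2w1 (adjusted p 0.0547 to 0.108). At 48 h with vehicle, leaving out 4OHT replicate 1 ended Cyp2w1, Cyp39a1, Cyp4f13, Cyp4f17, Cyp4f39 and Cyp4v3 (adjusted p 0.0684 to 0.169), and 4OHT replicate 2 ended these 6 and Cyp3a57 (adjusted p 0.0510 to 0.186). Without ethanol replicate 1 Cyp39a1 (adjusted p 0.0718) and Cyp4f17 (0.130) were not called, and without ethanol replicate 2 Cyp2w1 (0.129) was not. With MRTX1133, leaving out 4OHT replicate 1 ended Cyp21a1, Cyp26b1, Cyp2d34, Cyp2w1 and Cyp3a57 (adjusted p 0.0558 to 0.192). Leaving out 4OHT replicate 2 ended Cyp2d34 and Cyp3a57 (0.143 and 0.106) and left Cyp2w1 with 1 read after 4OHT. Without ethanol replicate 1, Cyp21a1, Cyp2d34 and Cyp3a57 stood at adjusted p 0.0538 to 0.0858, and without ethanol replicate 2 Cyp2d34 and Cyp2w1 stood at 0.159 and 0.0884. Cyp2c65, Cyp2d26, Cyp2s1, Cyp4f14 and Cyp4f40 stayed called with each library left out in all 3 deletion comparisons.

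The partners and regulators of P450 genes were counted over lists of their own. Of 11 electron-transfer and epoxide-hydrolase partners tested at 2 weeks none rose and 2 fell, against 9.81% of all genes called, and of 12 tested at 48 h 1 rose and 3 fell, against 31%. The ferredoxin gene Fdx1 fell in both (log2 −0.91 and −1.37), and the reductase gene Por fell at 48 h (log2 −0.47, adjusted p 0.0369). Of 13 regulators tested at 2 weeks, Hnf4a itself among them, none rose and 2 fell, and of 12 at 48 h 3 rose and 3 fell, against the same shares. Nr1i2, which encodes the drug receptor PXR, fell from a mean of 24.4 to 3.20 CPM at 2 weeks (log2 −2.93, adjusted p 0.00795) and from 7.87 to 1.10 CPM at 48 h (log2 −2.82).

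**Figure D3:**
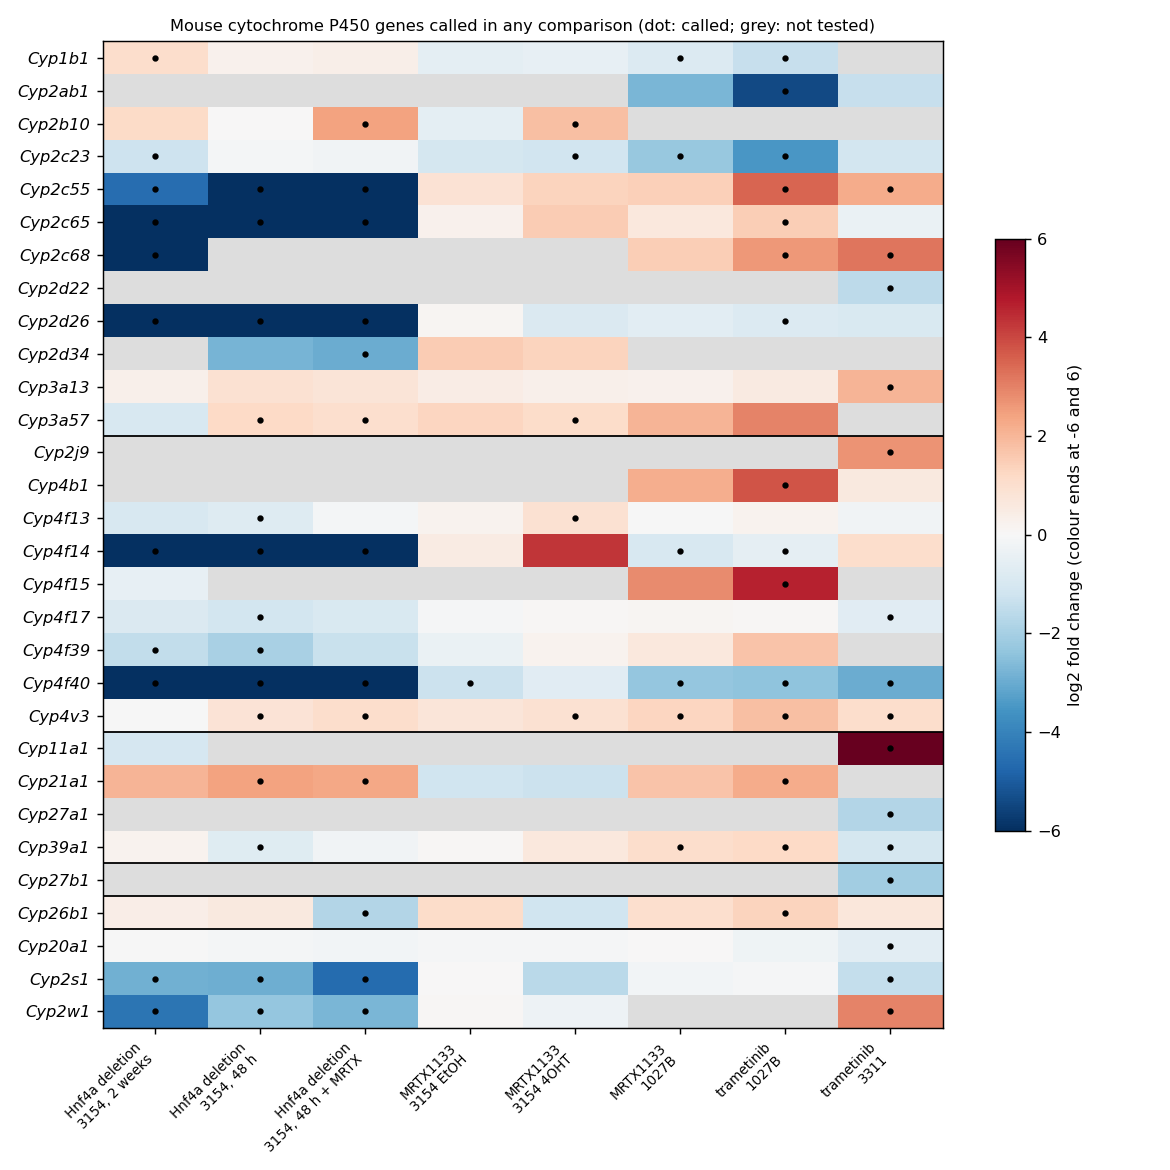
Log2 fold change of the 30 mouse P450 genes called at least once (rows, by role) in each of the 8 mouse comparisons of a treatment with its control (columns), as colours that end at −6 and 6, with a dot where the gene was called and grey where it was not tested. Cyp4f40 is lower in all 7 comparisons in which it was called and Cyp4v3 higher in all 6 in which it was called. No such tally was made over all genes.

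MRTX1133 alone was given to 3154 at 3 nM for 48 h. With Hnf4a intact, 1 of 24 P450 genes tested was called, Cyp4f40, which went from 30.7 and 29.0 to 12.3 and 12.4 CPM (log2 −1.27 ± 0.19, adjusted p 0.0443), against 0.349% of all genes (0.0323% fell and 0.317% rose). This call ended without ethanol-vehicle replicate 1 (adjusted p 0.0704) and without either MRTX1133 replicate (0.277 and 0.180), and with upper-quartile scaling or a fit of the 2 groups alone. With any 1 library left out its log2 change stayed between −1.31 and −1.23, while calls over all genes moved from 54 to between 0 and 309. After 4OHT, 5 of 24 were called, 20.8% against 4.64% of all genes (2.1% rose and 2.54% fell): Cyp2b10 rose from 1.21 and 1.87 to 5.52 and 5.32 CPM (log2 1.82 ± 0.28, adjusted p 0.0199), Cyp3a57, Cyp4v3 and Cyp4f13 rose by 1.11, 0.93 and 0.90 on the log2 scale, and Cyp2c23 fell from 9.17 and 9.51 to 4.69 and 3.73 CPM (log2 −1.15 ± 0.20, adjusted p 0.0263). None of the 5 was called when any 1 of the 4 libraries was left out (adjusted p 0.102 to 0.360), where calls over all genes fell from 717 to between 0 and 23. The log2 changes then ran from 1.53 to 2.16 for Cyp2b10, 0.89 to 1.37 for Cyp3a57, 0.80 to 1.08 for Cyp4v3, 0.80 to 0.99 for Cyp4f13 and −1.32 to −0.99 for Cyp2c23. Hnf4a went with MRTX1133 from 221 and 230 to 180 and 184 CPM after ethanol (log2 −0.31, adjusted p 0.378) and fell from 49.4 and 50.3 to 25.3 and 29.8 CPM after 4OHT (log2 −0.86, adjusted p 0.0185). Lung epithelial markers went from 6467 and 8781 to 10770.3 and 13641 CPM with Hnf4a intact and from 7760 and 8925 to 16709.5 and 12369 CPM after 4OHT. Gastric and intestinal markers went from 338 and 468 to 244 and 327 CPM and, after 4OHT, from 657 and 622 to 301 and 335 CPM. Club cell markers went from 33.6 and 68.8 to 137 and 192 CPM and, after 4OHT, from 425 and 633 to 937 and 953 CPM. The part of Hnf4a and of these lists in the P450 changes was not tested. The median log2 change was 0.08 with Hnf4a intact and 0.24 after 4OHT, against 0.00 for all genes in each.

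The difference between the MRTX1133 responses with and without Hnf4a was tested by an interaction term, and edgeR called 0 of the P450 genes and 0% of all genes (smallest adjusted p among P450 genes 0.541), with 4 P450 genes at an unadjusted p under 0.05. DESeq2 called 2, and 36 of all 15458 genes, Cyp26b1 at log2 −2.31 (adjusted p 0.00779) and Cyp2b10 at log2 2.44 (adjusted p 0.0087). Both comparisons with deletion share the libraries of this experiment, and their values for the members are those given above.

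Trametinib in the 1027B organoids moved P450 genes both ways, 9 up and 6 down among 23 tested, 65.2% called against 26.7% of all genes (13.5% rose and 13.2% fell), with a median log2 change of 0.52 against −0.01. Cyp2c55, Cyp2c65, Cyp2c68 and Cyp4b1 rose while Cyp4f40, Cyp2c23 and Cyp1b1 fell. Hnf4a fell there from 446 and 471 to 254 and 200 CPM (log2 −1.01, adjusted p 0.00535). Gastric and intestinal markers went with the drug from 3699.97 and 2596 CPM to 177 and 284 CPM, lung epithelial markers from 6355 and 10391 to 2202 and 2757 CPM, and club cell markers from 1.501 and 6.39 to 32.9 and 48.2 CPM. Epithelial markers went from 9167 and 9024 to 7416 and 8257 CPM and immune markers from 8.08 and 8.55 to 5.56 and 5.41 CPM. Their part in the P450 changes was not tested.

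Among the drug and arachidonic acid oxidising genes of 1027B, 9 were tested with trametinib, of which 3 rose and 4 fell, against 13.5% and 13.2% of all genes. Cyp2c55 went from 0.629 and 0.812 to 11.1 and 5.27 CPM, 11.3-fold higher (SE 0.50 on the log2 scale, adjusted p 0.00432). Cyp2c68 went from 6.05 and 4.82 to 49.5 and 16.6 CPM (log2 2.60 ± 0.52, adjusted p 0.0136) and Cyp2c65 from 14.3 and 25.3 to 67.7 and 43.6 CPM (log2 1.49 ± 0.30, adjusted p 0.0139). In all 3 the treated libraries lay above both vehicle libraries, with trametinib replicate 1 the higher. Cyp2c23 went from 25.8 and 21.3 to 2.23 and 2.00 CPM (log2 −3.48 ± 0.20, adjusted p 0.000434) and Cyp1b1 from 492 and 566 to 196 and 214 CPM (log2 −1.37 ± 0.12, adjusted p 0.00106). Cyp2d26 fell from 18.9 and 26.2 to 11.7 and 14.1 CPM (log2 −0.80 ± 0.22, adjusted p 0.0392), and Cyp2ab1 from 1.21 and 3.19 CPM to 2 reads in all, a ratio of 47.1 with a counting interval of 12.7 to 396 (adjusted p 0.00908). Cyp2s1, at 540 and 965 CPM with vehicle and 630 and 787 CPM with trametinib, overlapped (log2 −0.09, adjusted p 0.866).

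Of the 9 fatty acid oxidising genes tested in 1027B, 3 rose and 2 fell with trametinib, against 13.5% and 13.2% of all genes. Cyp4b1 (chr4:115624725-115647723), a lung enzyme that hydroxylates fatty acids and activates furans, went from 0.194 and 0.812 to 7.16 and 6.25 CPM, 13.3-fold higher (log2 3.75 ± 0.64, adjusted p 0.00813). Cyp4v3 (chr8:45304944-45333216) went from 3.44 and 3.52 to 11.3 and 12.6 CPM (log2 1.78 ± 0.19, adjusted p 0.00175). Cyp4f15 went from 1 read to 34, a ratio of 30.3 with a counting interval of 5.08 to 1231 (adjusted p 0.017). It stayed under 1 CPM and was added to the named genes after its values were seen. Cyp4f40 went from 46.1 and 44.3 to 9.75 and 7.09 CPM (log2 −2.42 ± 0.18, adjusted p 0.000733) and Cyp4f14 from 214 and 197 to 143 and 138 CPM (log2 −0.55 ± 0.09, adjusted p 0.00804). In the sterol and retinoid groups Cyp39a1 rose from 6.63 and 6.82 to 17.4 and 13.5 CPM (log2 1.20 ± 0.18, adjusted p 0.0056), Cyp21a1 from 2.95 and 2.06 to 16.7 and 6.81 CPM (log2 2.23 ± 0.54, adjusted p 0.0252) and Cyp26b1 from 3.68 and 5.20 to 14.9 and 7.74 CPM (log2 1.35 ± 0.35, adjusted p 0.0308).

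The paired fit with the replicate number as a block kept the direction of these calls, raised the calls over all genes from 3880 to 6540 of 14555, and added Cyp3a57 (log2 3.00, adjusted p 0.0299) and Cyp4f39 (log2 1.85, adjusted p 0.0113). Without vehicle replicate 1 the calls of Cyp21a1, Cyp26b1, Cyp2c68 and Cyp4f15 ended (adjusted p 0.0521 to 0.127), and without vehicle replicate 2 those 4 and Cyp2d26 (0.0625 to 0.196), with Cyp2d26 at log2 −0.52. Without trametinib replicate 1 Cyp21a1 stood at log2 1.44, Cyp26b1 at log2 0.81 and Cyp2c68 at log2 1.61, of which Cyp2c68 alone stayed called. Cyp2ab1, Cyp2c65, Cyp2d26, Cyp4f14 and Cyp4f15 lost their calls in the same fit (adjusted p 0.0509 to 0.198). Without trametinib replicate 2 Cyp2d26 was lost (adjusted p 0.0757) and Cyp2ab1 had no read with the drug. With any 1 library left out, the log2 change ran from 3.03 to 5.10 for Cyp4b1, the highest without vehicle replicate 2, and from 2.87 to 3.94 for Cyp2c55, the lowest without trametinib replicate 1. Calls over all genes fell in these fits from 3880 to between 1336 and 2754.

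MRTX1133 in the same organoids was tested against the same vehicle libraries. Of 23 P450 genes tested 2 rose and 4 fell, 26.1% against 6.27% of all genes (3.01% rose and 3.26% fell), with a median log2 change of 0.27 against 0.01. Cyp4f40 stood at 9.13 and 9.22 CPM (log2 −2.30 ± 0.18, adjusted p 0.00365), Cyp2c23 at 4.79 and 4.93 CPM (log2 −2.28 ± 0.19, adjusted p 0.00365) and Cyp4f14 at 103 and 108 CPM (log2 −0.96 ± 0.09, adjusted p 0.00666). Cyp1b1 stood at 285 and 318 CPM (log2 −0.81 ± 0.12, adjusted p 0.0168), Cyp4v3 at 8.13 and 8.77 CPM (log2 1.28 ± 0.19, adjusted p 0.017) and Cyp39a1 at 14.1 and 13.5 CPM (log2 1.03 ± 0.18, adjusted p 0.0275). All 6, picked by their calls, lay outside the range of the vehicle libraries, which held for 17 of all 23 P450 genes tested. The paired fit called 12, and 3515 of 14555 genes in all where the unpaired fit called 913, adding Cyp21a1 (log2 1.67, adjusted p 0.00179), Cyp2c55 (log2 1.38, 0.0403), Cyp2c68 (log2 1.44, 0.00758), Cyp4b1 (log2 2.18, 0.0226), Cyp2ab1 (log2 −2.63, 0.00831) and Cyp2d26 (log2 −0.63, 0.00833). Leaving out any 1 of the 4 libraries ended the calls of Cyp39a1 and Cyp4v3 (adjusted p 0.0593 to 0.124), and Cyp1b1 was lost without vehicle replicate 2 (0.0657), MRTX1133 replicate 1 (0.106) or MRTX1133 replicate 2 (0.0692). In those fits the log2 changes ran from 1.00 to 1.08 for Cyp39a1, 1.24 to 1.34 for Cyp4v3 and −0.88 to −0.69 for Cyp1b1, and calls over all genes fell from 913 to between 138 and 349. Hnf4a went from 446 and 471 to 297 and 242 CPM with MRTX1133 (log2 −0.76, adjusted p 0.0375). Gastric and intestinal markers went from 3699.97 and 2596 to 431 and 546 CPM, lung epithelial markers from 6355 and 10391 to 3027 and 4636 CPM, and club cell markers from 1.501 and 6.39 to 7.83 and 28.2 CPM. Epithelial markers went from 9167 and 9024 to 8123 and 7989 CPM and immune markers from 8.08 and 8.55 to 6.28 and 6.18 CPM. Their part in the P450 changes was not tested.

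Set against each other directly, the 2 drugs at these doses gave 0 called P450 genes and 0% of all genes in edgeR's unpaired fit, with 8 P450 genes at an unadjusted p under 0.05, while DESeq2 called 4 and the paired fit 6. Over all 14555 genes tested DESeq2 called 712 and the paired fit 2050. In the paired fit Cyp1b1 (log2 0.55, adjusted p 0.00211) and Cyp2c23 (log2 1.20, 0.00713) were higher with MRTX1133 than with trametinib, and Cyp2c55 (log2 −2.06, 0.00539), Cyp2c68 (log2 −1.04, 0.0256), Cyp4b1 (log2 −1.66, 0.0306) and Cyp4f14 (log2 −0.41, 0.00975) were lower.

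**Figure D4:**
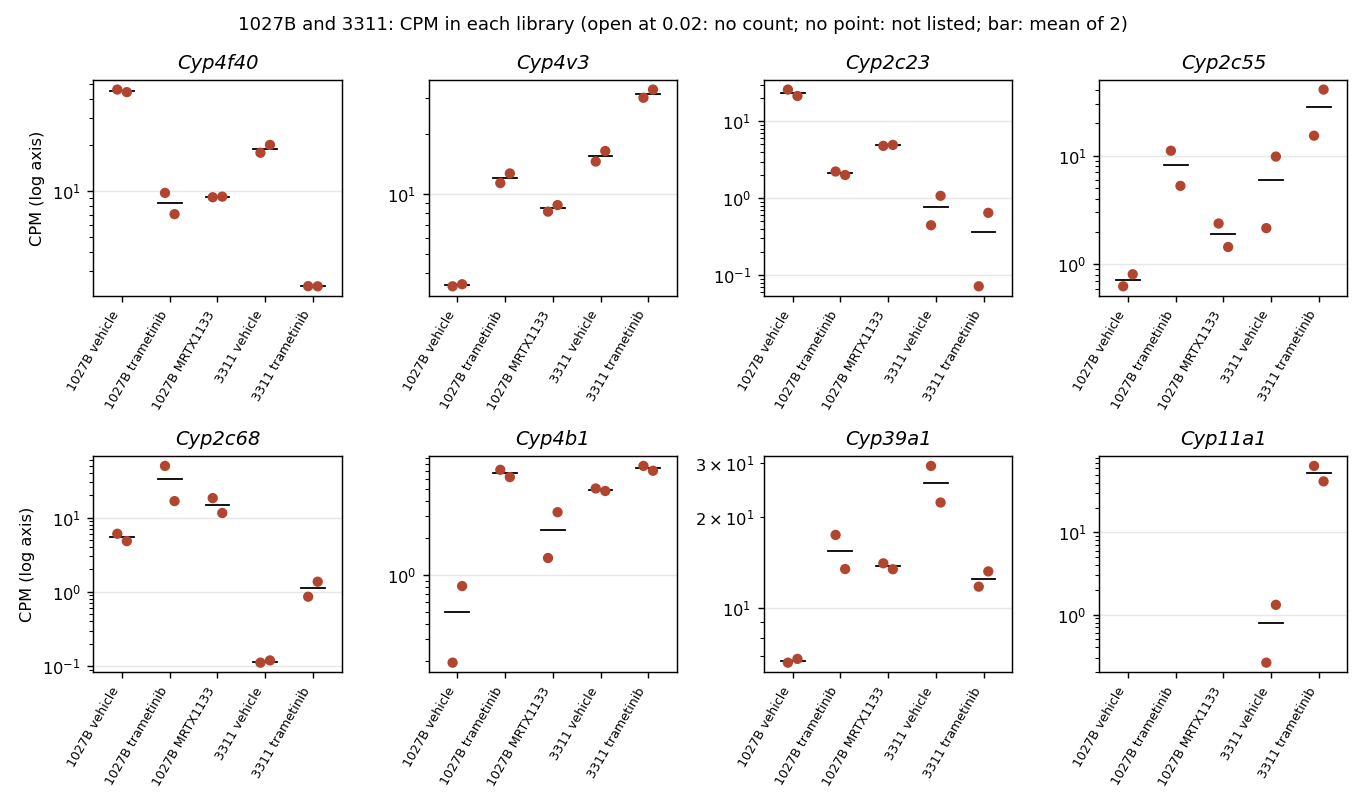
CPM (log axis) of P450 genes in each library of the 1027B organoids with vehicle, trametinib or MRTX1133 and of the 3311 line with vehicle or trametinib, with 1 point per library, open points for no count and bars for the mean of 2. Cyp4f40 lies lower and Cyp4v3 higher in every treated library of both cultures than in its vehicle libraries.

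In the 3311 line, trametinib at 50 nM raised 7 P450 genes and lowered 8 among 28 tested, 53.6% against 39% of all genes (19.4% rose and 19.6% fell), with a median log2 change of 0.04 against 0.01. The largest rise was that of Cyp11a1 (chr9:58006411-58027023), the side-chain cleavage enzyme that starts steroid synthesis from cholesterol, from 0.260 and 1.31 to 64.3 and 41.7 CPM, 67.3-fold higher (log2 6.09 ± 0.55, adjusted p 0.000663). Its log2 change was 5.32 with vehicle replicate 1 left out and 7.64 with vehicle replicate 2 left out. Hnf4a went from 374 and 479 to 263 and 390 CPM, and the groups overlapped (log2 −0.39, adjusted p 0.208). Lung epithelial markers went from 4462 and 5113 to 461 and 563 CPM in the same libraries, hepatocyte markers from 926 and 1220 to 371 and 924 CPM, immune markers from 4.87 and 4.22 to 1.54 and 0.951 CPM and club cell markers from 0.334 and 0.398 to 2.65 and 2.02 CPM, and their part in the P450 changes was not tested.

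Of the 3 sterol genes tested in 3311, Cyp11a1 rose and the other two fell. Cyp27a1, the sterol 27-hydroxylase, went from 28.5 and 27.7 to 8.42 and 8.02 CPM (log2 −1.77 ± 0.18, adjusted p 0.000949) and Cyp39a1 from 29.4 and 22.3 to 11.8 and 13.2 CPM (log2 −1.05 ± 0.21, adjusted p 0.00857). Cyp27b1, which activates vitamin D, fell from 1.41 and 0.796 to 0.287 and 0.228 CPM (log2 −2.08 ± 0.55, adjusted p 0.0239, DESeq2 0.0537). Cyp24a1, which inactivates vitamin D, had 10 and 55 reads with vehicle and 4 and 0 with trametinib, and did not pass the count filter.

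Among the drug and arachidonic acid oxidising genes of 3311, Cyp3a13 went from 14.1 and 19.8 to 65.3 and 73.5 CPM, 4.09-fold higher (log2 2.03 ± 0.20, adjusted p 0.000834). Cyp2c55 went from 2.15 and 9.80 to 15.2 and 40.4 CPM (log2 2.22 ± 0.69, adjusted p 0.0409, DESeq2 0.105) and Cyp2c68 from 0.111 and 0.119 to 0.860 and 1.37 CPM (log2 3.22 ± 0.60, adjusted p 0.00713). Cyp2d22 fell from 58.4 and 53.2 to 13.4 and 24.2 CPM (log2 −1.57 ± 0.27, adjusted p 0.00523). Cyp2c65 read 242 and 341 CPM with vehicle and 147 and 292 CPM with trametinib, overlapping (log2 −0.41, adjusted p 0.343). Cyp1b1, high in the organoid cultures, was at most 0.26 CPM in any 3311 library. Cyp2s1 fell from 496 and 655 to 138 and 291 CPM (log2 −1.42 ± 0.34, adjusted p 0.0162), Cyp20a1 from 68.7 and 66.5 to 41.4 and 44.5 CPM (log2 −0.66 ± 0.13, adjusted p 0.00897), and Cyp2w1 rose from 0.186 and 0.916 to 2.62 and 6.16 CPM (log2 3.00 ± 0.72, adjusted p 0.0171).

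The fatty acid oxidising genes of 3311 gave 2 rises and 2 falls among 10 tested, close to the 39% of all genes called. Cyp4f40 went from 17.8 and 20.1 CPM to 2.40 CPM in both treated libraries, 7.90-fold lower (log2 −2.98 ± 0.23, adjusted p 0.000439). Cyp4v3 went from 14.5 and 16.4 to 30.2 and 33.2 CPM (log2 1.04 ± 0.17, adjusted p 0.00454). Cyp2j9, an epoxygenase, rose (log2 2.71 ± 0.62, adjusted p 0.0137) and Cyp4f17 fell (log2 −0.66 ± 0.21, adjusted p 0.04). Without vehicle replicate 1 Cyp27b1, Cyp2c55, Cyp2w1 and Cyp4f17 were no longer called (adjusted p 0.0568 to 0.147). Without vehicle replicate 2 Cyp2j9 (0.0529) and Cyp2s1 (0.0664) were not called, and Cyp2c55 and Cyp2w1 stood at log2 3.69 and 4.52. Without trametinib replicate 1 Cyp20a1, Cyp27b1, Cyp2j9 and Cyp4f17 were lost (0.0758 to 0.0959), and without trametinib replicate 2 Cyp27b1 (0.128) and Cyp4f17 (0.273), with Cyp2c55 at log2 1.35.

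Over the 10 mouse comparisons, Cyp4f40 was called in 7, lower in all of them, and Cyp4v3 in 6, higher in all of them. Cyp4f14 was lower in 5 and Cyp2d26, Cyp2c23 and Cyp2s1 lower in 4 each. Cyp2c65 and Cyp2w1 were each lower in 3 and higher in 1, Cyp2c55 lower in 3 and higher in 2, and Cyp39a1 lower in 2 and higher in 2. Comparisons within one experiment share libraries, so these tallies do not count independent events. The genes are given here for being called in at least 4 comparisons, and how many of all genes were called as often was not counted. In all, 37 of the 51 mouse genes could be tested somewhere and 30 were called at least once, 81.1%, against 58.9% of all genes tested in any mouse comparison.

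In H358, which had no HNF4A read in any of its 4 libraries, trametinib raised 13 and lowered 2 of the 24 P450 rows tested, 62.5% against 46.8% of all genes (23.5% rose and 23.2% fell), with a median log2 change of 0.56 against 0.02. The summed P450 level went from 209 and 219 to 491 and 434 CPM. All family 1 genes rose. Summed fibroblast markers went from 49.5 and 40.8 to 348 and 246 CPM and summed epithelial markers from 5531 and 5334 to 3599 and 3879 CPM with the drug, lung epithelial markers from 119 and 133 to 174 and 178 CPM and endothelial markers from 11.6 and 14.1 to 20.8 and 20.99 CPM, and their part in the P450 changes was not tested.

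CYP1A1, the classic AHR-induced hydrocarbon oxidase, went from 0.725 and 1.76 to 47.2 and 24.01 CPM, 28.7-fold higher (log2 4.87 ± 0.43, adjusted p 9.22e-05), with log2 4.30 without trametinib replicate 1 and 5.60 without vehicle replicate 2. CYP1A2, its neighbour known from the liver, had no read with vehicle and 26 and 22 reads with trametinib, at least 8.503-fold higher (adjusted p 0.000902). It stayed under 1 CPM and was named after its values were seen. CYP1B1 went from 85.6 and 98.4 to 244 and 224 CPM (log2 1.34 ± 0.11, adjusted p 7.47e-05), and its antisense RNA CYP1B1-AS1 rose by 0.98 on the log2 scale (adjusted p 0.0151). CYP2E1, which oxidises ethanol, went from 1.06 and 0.627 to 3.29 and 2.00 CPM (log2 1.66 ± 0.36, adjusted p 0.00679). Of the AHR pathway genes, AHR went from a mean of 47.7 to 81.2 CPM (log2 0.77) and its repressor AHRR from 0.485 to 2.35 CPM (log2 2.30). ARNT and TIPARP, also on the list of regulators, are not described here. The part of this pathway in the family 1 changes was not tested. Of 12 regulators tested 7 rose and 2 fell, and of 12 partners 5 rose, POR among them (log2 0.67), and 1 fell, against 46.8% of all genes called.

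CYP4B1 went from 0.492 and 0.298 to 4.47 and 5.34 CPM in H358 (log2 3.60 ± 0.32, adjusted p 8.6e-05) and CYP4V2 from 12.2 and 11.8 to 24.6 and 22.1 CPM (log2 0.97 ± 0.14, adjusted p 0.000811). CYP2S1 went from 15.6 and 11.9 to 45.2 and 37.2 CPM (log2 1.58 ± 0.17, adjusted p 0.000222). The retinoic acid hydroxylases moved apart, CYP26A1 rising from 14 and 33 reads to 163 and 60 reads (log2 2.16 ± 0.44, adjusted p 0.00452) and CYP26B1 falling from 10.6 and 9.43 to 3.78 and 4.24 CPM (log2 −1.33 ± 0.18, adjusted p 0.000749). CYP39A1, CYP7B1, CYP27C1 and CYP20A1 rose by 0.80, 0.74, 0.58 and 0.55 on the log2 scale. CYP19A1, the aromatase that makes oestrogen, fell from 0.725 and 0.806 to 0.258 and 0.235 CPM (log2 −1.60 ± 0.38, adjusted p 0.00915, DESeq2 0.0879) and, under 1 CPM throughout, was named after its values were seen. None of the 3 vitamin D genes tested was called. Without vehicle replicate 1 CYP1B1-AS1, CYP20A1, CYP27C1 (then log2 0.38), CYP39A1 and CYP7B1 were no longer called (adjusted p 0.0578 to 0.193), without vehicle replicate 2 CYP19A1 (0.0510) and CYP20A1 (0.0632), and without trametinib replicate 1 CYP19A1 (0.0505) and CYP1B1-AS1 (0.0885).

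**Figure D5:**
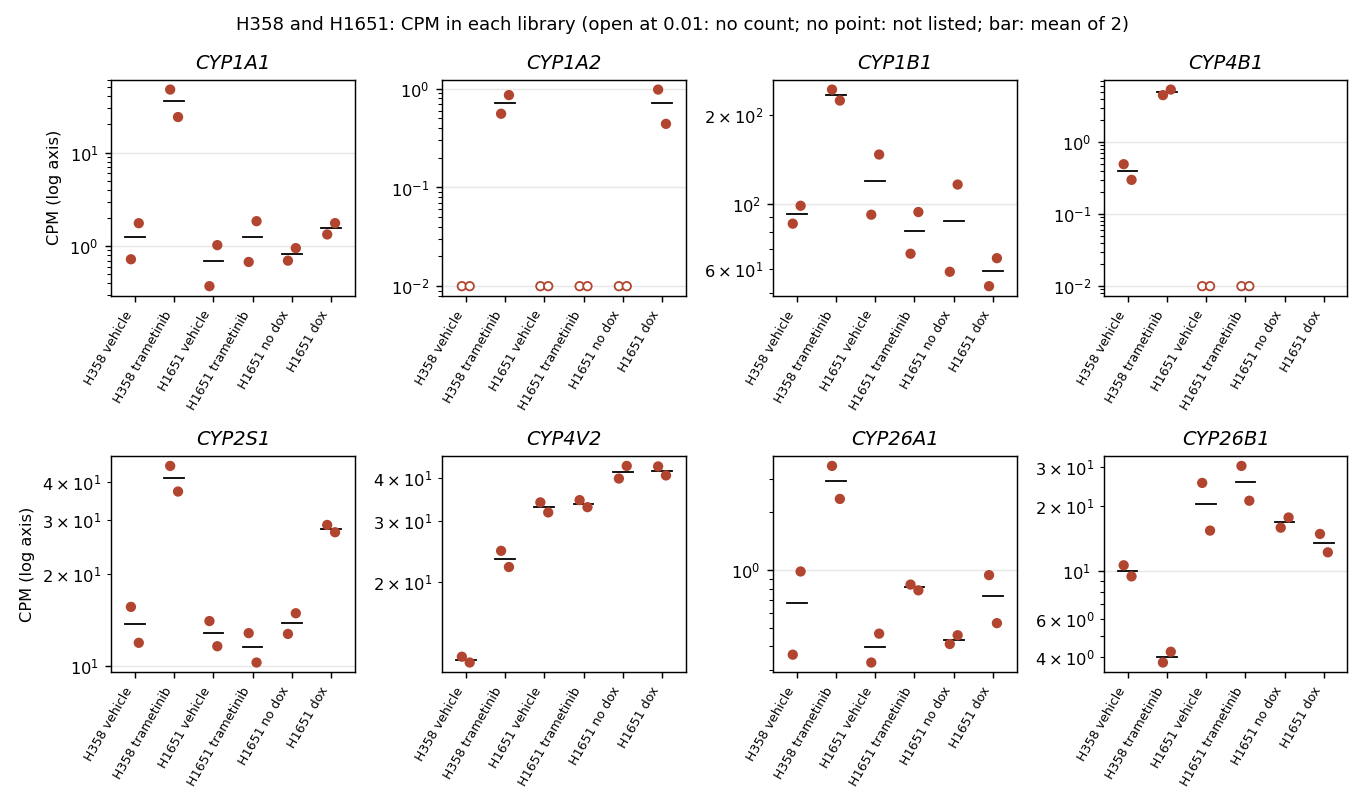
CPM (log axis) of human P450 genes in each library of H358 and H1651 with vehicle or trametinib and of H1651 without or with doxycycline, with 1 point per library, open points for no count and bars for the mean of 2. In H358 the trametinib points of CYP1A1, CYP1B1, CYP2S1 and CYP4B1 all lie above the vehicle points.

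In H1651, trametinib called none of the 27 P450 rows tested and 0% of all genes in edgeR's test, with 2 P450 rows at an unadjusted p under 0.05 and 0 called by DESeq2. CYP24A1 read 1.19 and 1.12 CPM with vehicle and 0.353 and 0.393 CPM with trametinib (log2 −1.62, adjusted p 0.999), and CYP1A1 had a log2 change of 0.89 and CYP26A1 of 1.05 (adjusted p 0.999 each). CYP4B1 and CYP1A2 had no read there. With the replicate number as a block in edgeR's fit, a pairing no label states, 5 P450 rows and 1881 of 18277 genes were called. CYP24A1 (log2 −1.63, adjusted p 0.000341) and CYP1B1 (log2 −0.545, adjusted p 3.89e-10) were lower, and CYP1A1, CYP26A1 and CYP26B1 were higher. HNF4A read 58.3 and 38.1 CPM with vehicle and 58.9 and 33.3 CPM with trametinib.

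Doxycycline raised HNF4A in H1651 from 47.0 and 35.9 to 94.3 and 96.7 CPM (log2 1.20, adjusted p 0.00978). Summed hepatocyte markers went with it, from 2.27 and 1.14 to 26.98 and 33.9 CPM. Fibroblast markers went from 643 and 725 to 407 and 445 CPM and epithelial markers from 4416 and 4418 to 5712 and 6200 CPM. Gastric and intestinal markers went from 21.2 and 18.8 to 33.9 and 29.7 CPM and endothelial markers from 1.98 and 2.75 to 3.26 and 3.18 CPM. Their part in the P450 change was not tested. Of 26 P450 rows tested 1 was called, 3.85% against 1.42% of all genes (1.04% rose and 0.386% fell), and the median log2 change was 0.15 against 0.00. The called gene was CYP2S1, which went from 12.7 and 14.9 to 28.9 and 27.4 CPM (log2 1.03 ± 0.12, adjusted p 0.0122), with both doxycycline libraries above both others. CYP1A2 had no read without doxycycline and 25 and 10 reads with it, at least 5.98-fold higher, but its adjusted p of 0.0721 missed the threshold, and DESeq2 gave 0.0131. CYP17A1, a steroid hydroxylase, had no read without doxycycline and 9 and 8 reads with it, and was not tested. Over the human tables, 30 of the 40 enzyme genes could be tested somewhere and 14 were called at least once, 46.7%, against 41.5% of all genes tested.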

How the data were processed

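RNA-seq was measured in 34 libraries. Per the submitters' processing notes, the tools named are cutadapt 3.5, STAR 2.7.6a and featureCounts 1.6.3, with the builds hg38, mm10 and mm39. Which mouse build each table used is not given in the sources used here, so gene positions are those of GENCODE M21 (GRCm38). The deposited values are raw counts per gene, made by the authors and not normalized. Rows without a gene symbol kept their identifiers and stayed in the tests.

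Each table was analysed alone in R 4.3.3. Genes passed edgeR 4.0.16's filterByExpr, TMM factors scaled the libraries, and the quasi-likelihood test ran over all genes with Benjamini-Hochberg adjustment at 0.05, over all groups of a table and without a replicate term. DESeq2 1.42.0 was an alternative, as were other scalings, count filters, a replicate block, a fold limit, fits of the compared groups alone and leaving out each library. The code was tested on simulated data. Reads were counted as deposited, and libraries were directional per the labels' protocols, but the strand setting of counting is not given in the sources used here.

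In 1027B the same replicate numbers deviated together (correlations of 0.243, 0.372 and 0.414 between the 3 pairs of groups), and the numbers come from the sample titles. That table's paired values are therefore printed where they change a call.

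P450 genes not tested had 0 to 55 counts in a library. They numbered 5 of 28 listed in 1027B, 15 of 41 and 7 of 31 in the 3154 tables, 8 of 36 in 3311, 11 of 37 and 18 of 45 in H1651 and 21 of 45 in H358. Named genes were P450 genes called with a mean of at least 1 CPM in the higher group, up to 12 per direction and comparison, the 5 highest in each vehicle culture, those called in at least 4 comparisons, and same-named orthologues of these. Members and lists were chosen with earlier results of these data known. One further allele that all mouse cultures share is not reported here.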

Additional observations from a re-analysis of the deposited data

Results flagged for a closer look

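Under trametinib, 5 P450 genes were called in opposite directions in different cultures, 15.2% of the 33 tested in more than 1 culture and 50% of the 10 called in more than 1. Over all genes, matched by name, 1075 of 18702 were, 5.75%, and 25.4% of the 4226 called in more than 1. In each case every treated library lay on 1 side of its vehicle libraries and the other culture's on the opposite side. Genes picked by their calls with 2 libraries a group are likely to lie so. The differences between cultures were not tested, and the doses differed (10 nM in 1027B, 50 nM in 3311 and 20 nM in H358), as did the species. Cyp1b1 changed by −1.37 on the log2 scale in 1027B and CYP1B1 by 1.34 in H358. Cyp26b1 changed by 1.35 in 1027B and CYP26B1 by −1.33 in H358. Cyp2s1 changed by −1.42 in 3311 and CYP2S1 by 1.58 in H358. Cyp20a1 changed by −0.66 in 3311 and CYP20A1 by 0.55 in H358. Cyp39a1 changed by 1.20 in 1027B and by −1.05 in 3311, and CYP39A1 by 0.80 in H358.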

How the results depend on the processing

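RLE scaling and the absence of a count filter kept every named gene's call in its comparison, and no result reversed under any alternative run. Upper-quartile scaling moved the median of all genes at 2 weeks from 0.02 to 0.11. Requiring 10 counts in every library, which takes out genes that fell to few reads, gave 4 calls against 11 in the 2-week deletion, 7 against 14 and 5 against 13 in the 48-h deletion with vehicle and with MRTX1133, and 0 against 1 for MRTX1133 with Hnf4a intact. Over all genes it gave 1004 of 13022 tested against 1421 of 14492 at 2 weeks. In the 48-h experiment, with 12809 against 15458 tested, it gave 3925 against 4795, 3557 against 4279 and 44 against 54. The P450 genes left to test under this filter are not counted here, so their share cannot be set beside that of all genes. MRTX1133 with Hnf4a intact also had 0 calls with upper-quartile scaling and with only its groups fitted, and 3 with DESeq2 (all genes from 54 to 330). For MRTX1133 after 4OHT, only its groups fitted gave 10 calls (all genes from 717 to 3932) and a fold limit 3. DESeq2 gave 2 for the interaction, 10 for MRTX1133 in 1027B, 4 for MRTX1133 against trametinib and 2 for doxycycline, where calls over all genes rose from 0 to 36, 913 to 1636, 0 to 712 and 247 to 451. The fold limit left 9 for trametinib in H358. The replicate block gave 17 calls at 2 weeks, 12 for MRTX1133 in 1027B, 6 for MRTX1133 against trametinib, and 5 each for doxycycline and for trametinib in H1651. Calls over all genes in these 5 comparisons rose with the block as well, from 1421 to 4563, 913 to 3515, 0 to 2050, 247 to 3048 and 0 to 1881. It moved no other count of P450 genes by over 1.5 times, while for trametinib in 1027B the calls over all genes rose from 3880 to 6540. Outside 1027B the numbers were shared without a stated pairing, and the correlations of same-numbered deviations were 0.427 at 2 weeks, −0.251 to 0.549 at 48 h, 0.126 in 3311, 0.318 and 0.623 in H1651 with doxycycline and trametinib, and 0.318 in H358. With 1 library left out, calls ranged from 5 to 16 at 2 weeks, 7 to 15 and 8 to 14 in the 48-h deletion with vehicle and MRTX1133, 0 to 3 and 0 to 0 for MRTX1133 before and after deletion, 8 to 14 for trametinib and 3 to 4 for MRTX1133 in 1027B, 12 to 16 in 3311, 1 to 2 for doxycycline, 0 to 1 for trametinib in H1651 and 10 to 16 in H358. Over all genes the calls ran in these fits from 1336 to 2754 for trametinib in 1027B (3880 with all libraries), 3772 to 6298 in 3311 (5938), 232 to 412 for doxycycline (247), 0 to 193 for trametinib in H1651 (0) and 6682 to 9265 in H358 (8871). The cause of these shifts was not tested. Depth limits the genes that fell to a few reads, for which only bounds or wide counting intervals could be given.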
